A study of Mus musculus with 6 samples.

Results

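The miR-26 family in the prefrontal cortex of aged mice was described from the 3 rows named mmu-miR-26a-5p, mmu-miR-26b-5p and mmu-miR-26b-3p, out of 1189 entries in the deposited tables. The prefix for mouse is left out of the names from here on. The members were taken by name, with no threshold on a measured value. Small RNA libraries had been made from 3 mice of the PND group (postoperative neurocognitive disorder) and 3 mice of the CON group, with 1 library per mouse. All mice were wild type C57BL/6 males recorded as 18 months old, although 17 months appears in the sample names. In the PND group, 30 min of 1.5% isoflurane preceded an exploratory laparotomy, also of 30 min and under isoflurane, after which lidocaine cream and povidone iodine were put on the wound. The CON group was neither anesthetized nor operated on, so the effects of anesthesia, operation and wound care cannot be told apart. Both groups had passed through the same behavioral tests and were deeply anesthetized with isoflurane when the tissue was taken. This was 30 min after the Barnes maze, the last of these tests, which ran in the days after the operation. The mice were perfused with saline first. The comparison of PND with CON asks which miRNAs differ in level after anesthesia and surgery.

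A miRNA is cut from a hairpin as a short RNA from its 5p or its 3p arm, and the arm that is loaded into an Argonaute protein guides it to messenger RNAs that pair with its seed, the bases from 2 to 8. The miR-26 hairpins lie inside introns of the Ctdsp genes, which encode small phosphatases that act on the C-terminal domain of RNA polymerase II and work with REST, a repressor that keeps neuronal genes silent in cells that are not neurons. In neural differentiation miR-26 is known to act on REST and on the phosphatase of its own host gene, and it stays abundant in mature neurons.

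Mir26a-1 is at chr9:119031796-119031885, Mir26a-2 at chr10:126995530-126995613 and Mir26b at chr1:74394310-74394394, all on the plus strand of GRCm38.p6. In GENCODE release M21 they lie in introns of the protein-coding genes Ctdspl, Ctdsp2 and Ctdsp1, on the same strand as the host, and none of the 3 hairpins touches an exon of a host transcript. Mir26b sits in intron 4 of a Ctdsp1 transcript of 7 exons, 235 and 246 bases from the neighboring exons. Mir26a-1 lies 1544 and 1651 bases from the exons on either side, and Mir26a-2 lies 1622 and 242 bases from them. The mature arms below are those of RefSeq, shown from 5′ to 3′ with the seed in capitals because the seed decides which arms can share targets.
miR-26a-5p: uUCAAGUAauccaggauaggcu
miR-26b-5p: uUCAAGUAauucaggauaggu
miR-26b-3p: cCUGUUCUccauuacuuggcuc
miR-26a-2-3p: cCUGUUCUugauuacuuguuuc
miR-26a-1-3p: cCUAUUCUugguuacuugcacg

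miR-26a-5p is written identically in Mir26a-1 and Mir26a-2, so its reads cannot be divided between the 2 loci. Counted from 1 at the 5′ end, miR-26a-5p differed from miR-26b-5p by C11U and C21U over the 21 bases they share, and miR-26a-5p is 1 base longer. Neither change lies in the seed. How reads that align to both arms were counted is not given in the sources used here, so the split between these near-identical arms is uncertain. Among the 997 listed miRNAs with a RefSeq sequence, out of 1156 with a miRBase name, no other miRNA held the seed of the 5p arms. The seed of miR-26b-3p was shared with miR-26a-2-3p and with 2 further listed miRNAs, miR-6932-3p and miR-7039-3p. miR-26a-1-3p had a seed of its own, which differed from that of miR-26b-3p by G4A. The 3p arms can be told apart by their reads more easily than the 5p arms, since miR-26b-3p differed from miR-26a-2-3p at 4 of 22 bases and from miR-26a-1-3p at 8.

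The complement of the 5p seed, TACTTGA, was searched on the transcript strand of the 3′ UTR of REST and of the host genes, with the longest annotated 3′ UTR of each gene. It occurred once in Rest, at chr5:77283325-77283347 with its flanks, and once in Ctdsp2, the host of Mir26a-2, at chr10:126997558-126997580. The sites are shown with the complement of the seed in capitals, and the Rest site is followed by an A opposite base 1 of the miRNA.
Rest: tagtaaatTACTTGAagaatttg
Ctdsp2: gttgctctTACTTGAtttgccaa
The letters were not found in the 3′ UTR of Ctdsp1 or Ctdspl. Of 21022 genes with a 3′ UTR, 9.67% held the motif, and among the 1350 genes with a 3′ UTR of 3000 to 4000 bases, the length class of Rest and Ctdsp2, 23.5% did. A match is a description of the sequence and not a measured interaction, and messenger RNAs were not analysed here.

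The libraries held 14849461 to 19471226 reads on miRNAs, and a level of 3 reads, the smallest taken as detected, was between 0.154 and 0.202 CPM. CPM is the number of reads of a miRNA scaled to the same total of miRNA reads in each library, so each level is also a share of its library. The libraries carried cortical markers, as the summed level of 5 miRNAs of neurons and cortex was 301035 to 329984 CPM in PND mice and 324932 to 382723 CPM in CON mice. Most of this sum was miR-128-3p, with means of 199530 CPM in PND and 245091 CPM in CON (log2 fold change -0.29). For the others, miR-124-3p, miR-9-5p, miR-138-5p and miR-218-5p, the log2 fold change was 0.24, 0.09, 0.32 and 0.25. CON mouse 1 stood apart in 8 epithelial or olfactory miRNAs, whose sum was 1646 CPM there against 145 to 182 CPM in the PND mice, while their lowest sum was 67.0 CPM in another CON mouse. The summed markers of red blood cells were 47.0 to 99.5 CPM in PND and 31.9 to 54.5 CPM in CON, those of leukocytes and microglia 299 to 331 and 279 to 328 CPM, those of oligodendrocytes 1567 to 1756 and 1382 to 1597 CPM, and those of choroid plexus 1081 to 1109 and 735 to 1222 CPM. Liver markers summed to 260 to 310 CPM in PND and 198 to 279 CPM in CON, and muscle markers to 502 to 601 and 413 to 593 CPM. For endothelium and mural cells the sum was 22053 to 23890 CPM in PND and 19026 to 24042 CPM in CON. Over the 6 libraries, as a description, the Pearson correlation of the summed markers with miR-26a-5p was 0.64 for neurons and cortex, 0.35 for epithelium, -0.11 for red blood cells, 0.20 for leukocytes and microglia, -0.90 for endothelium and mural cells, -0.51 for oligodendrocytes, -0.23 for choroid plexus, -0.80 for liver and -0.61 for muscle, and their part in the level of miR-26a-5p was not tested. None of the markers on the lists for epithelium, red blood cells, leukocytes and microglia, endothelium, oligodendrocytes, choroid plexus, liver or muscle was at 0 in every library. miR-128-3p, the most abundant entry, took 17.6% to 23.2% of the reads in PND mice and 21.6% to 29.2% in CON mice, and values scaled without its reads are given beside the members' differences. The Pearson correlation of miR-128-3p alone with miR-26a-5p was 0.69, near that of the summed neuron and cortex markers.

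The miR-26 family was among the most abundant in this tissue, and nearly all of it was a single arm. miR-26a-5p had 56773, 57520 and 52755 CPM in PND mice 1 to 3, against 60773, 59742 and 54964 CPM in CON mice 1 to 3. PND mouse 3 was the lowest and CON mouse 1 the highest, and the groups overlapped, since CON mouse 3 lay below PND mice 1 and 2. These levels rest on 884561 to 1105446 reads per library, which is 5.28% to 6.08% of all reads. Its group means were 55683 ± 2563 CPM in PND and 58493 ± 3099 CPM in CON (SD, n = 3 each).

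miR-26b-5p, which carries the same seed, was far less abundant. It had 1878, 2037 and 1985 CPM in PND mice 1 to 3, against 1930, 1848 and 1833 CPM in CON mice 1 to 3. PND mouse 1 lay below CON mouse 1, so the groups overlapped here too. Between 27435 and 36558 reads stood behind each value, and the group means were 1967 ± 81.6 CPM in PND and 1870 ± 52.3 CPM in CON (SD, n = 3 each). miR-26a-5p supplied 96.4% to 97.0% of the family in every library and miR-26b-5p 3.00% to 3.63%, so reads that carry the shared seed were almost entirely those of miR-26a-5p. The summed family took 5.47% to 6.27% of all reads.

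miR-26b-3p, the less used arm of the Mir26b hairpin, was low but above the floor in all 6 libraries. It had 3.39, 4.37 and 4.29 CPM in PND mice 1 to 3, against 3.99, 4.65 and 5.22 CPM in CON mice 1 to 3, from 61 to 84 reads. PND mouse 1 was the lowest and CON mouse 3 the highest, and the groups overlapped. The group means were 4.02 ± 0.546 CPM in PND and 4.62 ± 0.614 CPM in CON (SD, n = 3 each). The 3p arm made up 0.180% to 0.284% of the miR-26b reads.

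**Figure D1:**
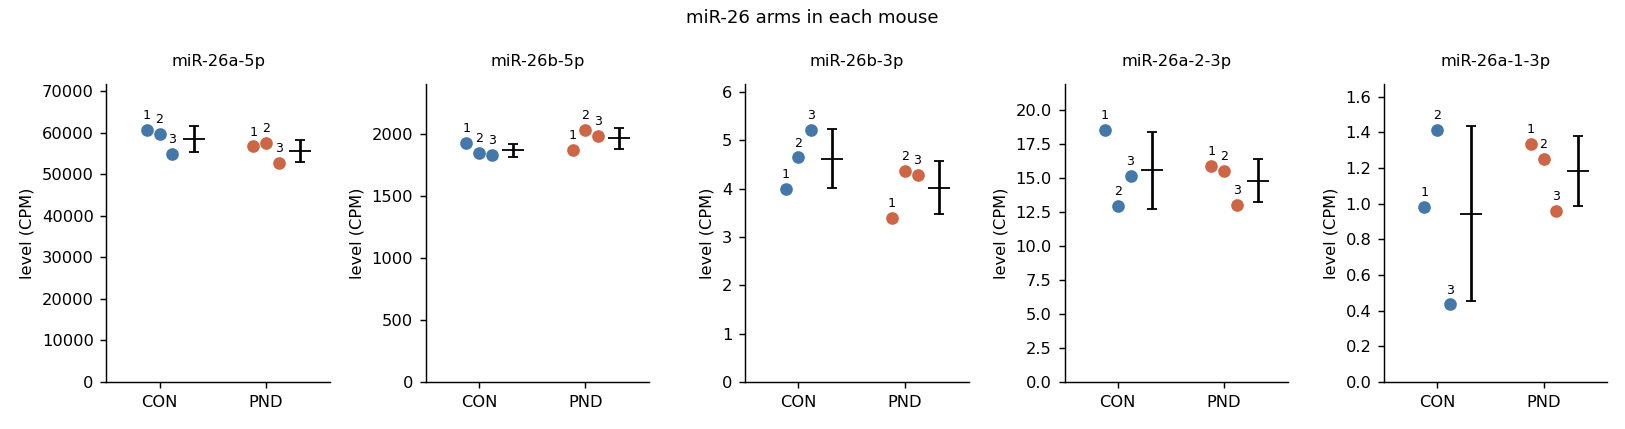
Levels in CPM (vertical axes, from 0, each with its own scale) of the 3 members and of the other 2 arms of the miR-26 hairpins in the mice of the CON group (blue) and the PND group (orange), with the mouse number above each point and the mean ± SD of 3 mice beside it. The groups overlapped for all 5 arms, and miR-26a-5p ran from 52755 to 60773 CPM.

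The other arms of the miR-26a hairpins were listed as well and are given for comparison. miR-26a-2-3p had 15.9, 15.5 and 13.0 CPM in PND mice 1 to 3, against 18.5, 12.9 and 15.2 CPM in CON mice 1 to 3, which is a higher level than that of miR-26b-3p in every library. miR-26a-1-3p had 1.34, 1.25 and 0.960 CPM in PND mice 1 to 3, against 0.982, 1.41 and 0.435 CPM in CON mice 1 to 3, from 7 to 26 reads. miR-26a-2-3p exceeded miR-26a-1-3p by 9.14 to 34.9 times, and the highest ratio was that of CON mouse 3, where miR-26a-1-3p had only 7 reads. The log2 difference of this ratio between the groups was -0.53, with an SD of 0.095 in PND and 0.97 in CON (two-sided exact permutation test, p = 0.4). As the 5p arm of both hairpins is the same, these 3p arms are the only miR-26a reads that name their locus, and how far they track the output of the 5p arm was not tested.

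In the order of mean levels miR-26a-5p was rank 4 of 1189, miR-26b-5p rank 50 and miR-26b-3p rank 408. Only miR-128-3p, miR-9-5p and let-7f-5p had a higher mean than miR-26a-5p. let-7f-5p had 60953 ± 2843 CPM (SD, n = 6), and miR-26a-5p was above it in 1 of 6 libraries. let-7g-5p, the entry below, had 56642 ± 3183 CPM, and miR-26a-5p was above it in 3 of 6 libraries, so let-7g-5p and miR-26a-5p were not separated by more than their spread. The mean of let-7f-5p was above that of miR-26a-5p, 57088 ± 2973 CPM over the same mice, by more than either SD. miR-26b-5p stood between miR-543-3p, with 2020 ± 199 CPM, and miR-344-3p, with 1865 ± 471 CPM (SD, n = 6 each), and was higher in 3 of 6 libraries than either. miR-26b-3p stood between miR-6516-5p and miR-6952-3p, with 4.38 ± 0.664 and 4.31 ± 0.514 CPM (SD, n = 6 each). Mature miRNAs differ little in length, so no length correction was applied to this order.

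**Figure D2:**
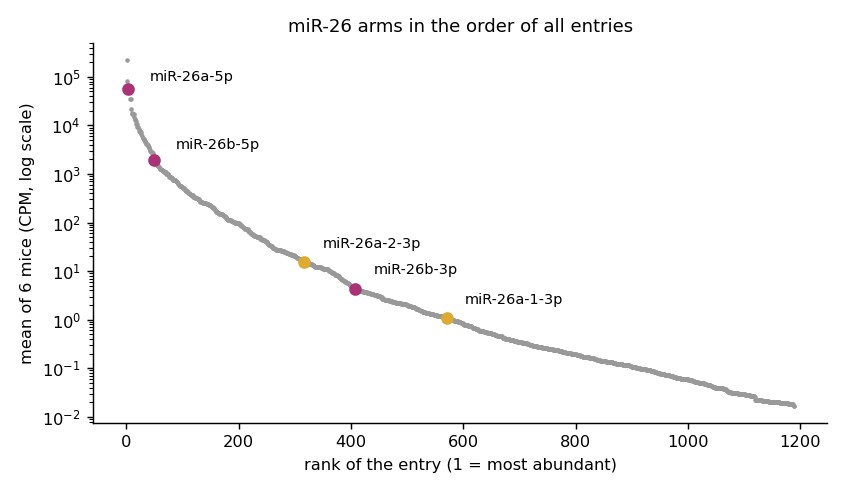
Mean level of each of the 1189 entries over 6 mice in CPM (vertical axis, log scale) against its rank (horizontal axis). Purple points are the 3 members, yellow points are the 3p arms of the miR-26a hairpins, and the 5p arms sit at ranks 4 and 50 while the 3p arms sit at ranks 317 to 571.

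On the deposited CPM scale the levels of the 5p arms varied little among mice. Over all 6 mice the SD of log2(CPM + 1) was 0.08 for miR-26a-5p and 0.06 for miR-26b-5p, against a median of 0.20 over the 361 entries with a mean of at least 10 CPM. Of these 361 entries, 29 had a smaller SD than miR-26a-5p and 18 had a smaller SD than miR-26b-5p. This small spread depends on the scale. With the reads of miR-128-3p left out of the total, the SD of the log2 share of miR-26a-5p within each group was 0.11 in PND and 0.14 in CON. On the CPM scale the SD within each group of the log2 family sum, nearly all miR-26a-5p, was 0.06 in PND and 0.08 in CON. The spread of the other entries was compared on the CPM scale only. Reads were numerous enough that counting alone gives miR-26a-5p a coefficient of variation of 0.0951% to 0.106%. This is far below the 4.60% seen between PND mice and the 5.30% seen between CON mice. For miR-26b-5p counting gave 0.523% to 0.604%, against 4.15% and 2.80%. For miR-26b-3p counting alone gave 10.9% to 12.8%, and the spread between mice was 13.6% in PND and 13.3% in CON, so its spread between mice was little above the counting error. The libraries carry no stated molecular identifiers, and these figures cover counting error only.

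None of the 3 members differed between PND and CON in limma's test on log2(CPM + 1), where a call needs an unadjusted p under 0.05 and a change of more than 2-fold, the limits used by the study. Over all 1189 entries 1 passed both limits (0.0841%), the unadjusted p was under 0.05 for 5.13% and the adjusted p for 0.421%, so 0 calls among 3 members is near the background. The study took p-values from edgeR and fold changes from TPM, and also names limma, so this share is not the study's own. In edgeR, 32 of the 1189 entries passed both limits here. The count of members at an unadjusted p under 0.05 was 0 in limma, and also 0 in edgeR's quasi-likelihood test and in DESeq2, where the shares over all entries were 4.21% and 2.36%. The groups did not overlap for 9.92% of all entries, 7.91% with PND higher and 2.02% with CON higher, and for 0 of the 3 members.

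For miR-26a-5p the log2 fold change was -0.07 (SE 0.08, limma's adjusted p = 0.77, by the Benjamini-Hochberg method over all entries), and the 95% interval ran from -0.25 to 0.11. In percent, this interval reaches from 16.1% lower to 8.12% higher in PND. The exact permutation test over the 6 mice gave p = 0.3 (two-sided), where the smallest p that 3 mice against 3 allow is 0.1. It moved to -0.04 when CON mouse 1 was left out, and in the other direction to -0.16 with the reads of miR-128-3p left out of the total, -0.19 with TMM factors, -0.20 in edgeR and -0.23 in DESeq2, with no call in any of these.

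For miR-26b-5p the log2 fold change was 0.07 (SE 0.09, adjusted p = 0.79 from limma), with a 95% interval from -0.13 to 0.27 and an exact permutation p of 0.2, and it turned negative, to -0.05, with TMM factors and, to -0.01, with the reads of miR-128-3p left out of the total, and it was also below 0 in edgeR and DESeq2. For miR-26b-3p it was -0.16 (SE 0.18, adjusted p = 0.77 from limma), with a 95% interval from -0.57 to 0.24 and an exact permutation p of 0.4, and it was -0.24 with the reads of miR-128-3p left out of the total and -0.26 with TMM factors. When CON mouse 1 was left out, miR-26b-5p was at 0.10 and miR-26b-3p at -0.25. The intervals of all 3 members lie inside a 2-fold change in either direction. True differences within these intervals are not excluded by the data of 3 mice per group. In bulk tissue, fewer cells of a type and less of a miRNA per cell cannot be told apart.

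**Figure D3:**
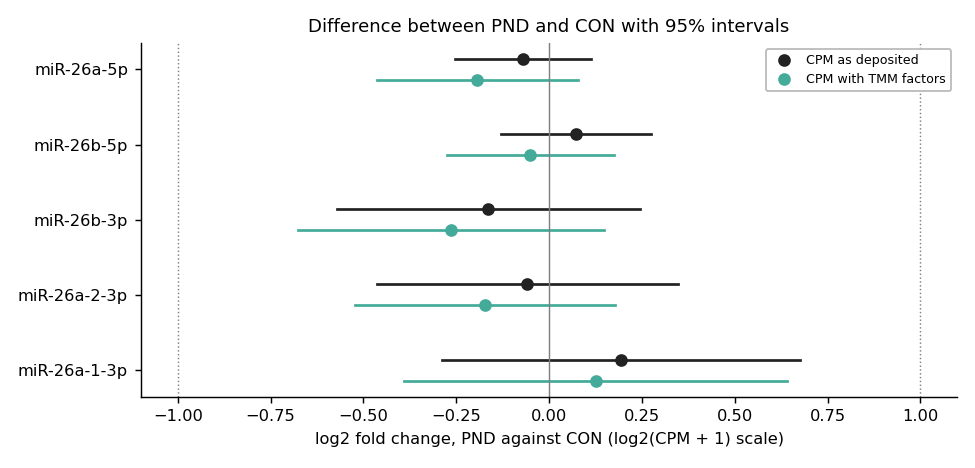
Log2 fold change of PND against CON (horizontal axis, on the log2(CPM + 1) scale) for the 3 members and the other 2 arms, as points with 95% intervals from limma. Black is the deposited CPM and green is CPM with TMM factors, where miR-26b-5p changes sign from 0.07 to -0.05. All intervals lie between the dotted lines, which mark a 2-fold change of CPM + 1. At the low level of miR-26a-1-3p these lines stand for more than 2-fold in CPM.

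On the deposited CPM scale most of the more abundant miRNAs had a log2 fold change above 0. The median log2 fold change was 0.14 over the 361 entries whose mean reached 10 CPM, and 286 of them lay above 0. With TMM factors this median was 0.02 and 186 lay above 0, and without CON mouse 2 it was 0.04 on the CPM scale. Relative to these entries miR-26a-5p was on the lower side on both scales, at -0.07 and at -0.19 with TMM factors (adjusted p = 0.82 from limma with TMM factors). With the reads of miR-128-3p left out of the total, miR-26a-5p was 7.40%, 7.10% and 6.41% of what remained in PND mice 1 to 3, against 7.87%, 8.44% and 7.01% in CON mice 1 to 3. The groups overlapped on this scale as well, as CON mouse 3 lay below PND mice 1 and 2 (exact permutation test, two-sided, p = 0.3).

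Ratios between members do not depend on the library total. The ratio of miR-26a-5p to miR-26b-5p was 30.2, 28.2 and 26.6 in PND mice 1 to 3, against 31.5, 32.3 and 30.0 in CON mice 1 to 3. All PND mice but PND mouse 1 lay below all CON mice, and the means were 28.3 ± 1.84 and 31.3 ± 1.19 (SD, n = 3 each). The log2 difference of -0.14 did not pass the exact permutation test (two-sided, p = 0.2), and leaving out each mouse moved it between -0.19 and -0.10, so a different change of the 2 arms with the same seed was not shown.

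The ratio of the 5p to the 3p arm of miR-26b describes which arm of the hairpin is kept. It was 554, 466 and 463 in PND mice 1 to 3, against 483, 398 and 351 in CON mice 1 to 3, with means of 494 ± 51.8 and 411 ± 67.0 (SD, n = 3 each). CON mouse 1 lay above PND mice 2 and 3, and the log2 difference was 0.27 (exact permutation test, two-sided, p = 0.3). Leaving out each mouse moved this difference between 0.17 and 0.40.

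**Figure D4:**
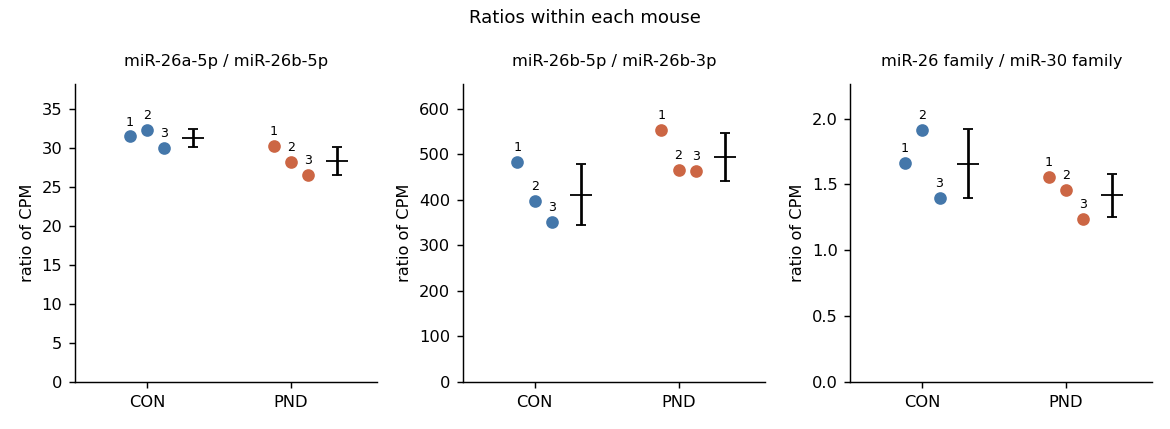
Ratios of CPM within each mouse (vertical axes, from 0) for miR-26a-5p to miR-26b-5p, miR-26b-5p to miR-26b-3p, and the miR-26 family to the miR-30 family, in CON (blue) and PND (orange), with mouse numbers and the mean ± SD of 3 mice. The first ratio was 26.6 to 30.2 in PND and 30.0 to 32.3 in CON, and the groups overlapped in all 3 panels.

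The let-7 and miR-98 family and the miR-30 family, which also come from several loci and are abundant in many tissues, served for comparison. The miR-26 family sum was 57654 ± 2560 CPM in PND and 60368 ± 3138 CPM in CON (SD, n = 3 each, log2 difference -0.07, exact permutation test, two-sided, p = 0.3). The 10 members of the let-7 and miR-98 family summed to 210640 ± 7361 and 205894 ± 6525 CPM, and the 5 members of the miR-30 family to 40936 ± 3269 and 36845 ± 4326 CPM (SD, n = 3 each). The ratio of miR-26 to let-7 and miR-98 was 0.276, 0.275 and 0.270 in PND mice 1 to 3, against 0.316, 0.292 and 0.273 in CON mice 1 to 3. Only CON mouse 3 fell within the range of the PND mice (log2 difference -0.10, exact permutation test, two-sided, p = 0.3). The ratio of miR-26 to miR-30 was 1.55, 1.46 and 1.24 in PND mice 1 to 3, against 1.66, 1.92 and 1.40 in CON mice 1 to 3, again with overlap (log2 difference -0.22, p = 0.3 in the same exact test). A difference of miR-26 from either family in its change between the groups was therefore not shown.

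The members did not follow each other across these 6 mice, which are too few to exclude a correlation. The spread of miR-26b-3p was also little above its counting error. Over the 6 libraries the Pearson correlation of log2(CPM + 1) was -0.16 between miR-26a-5p and miR-26b-5p, -0.18 between miR-26a-5p and miR-26b-3p, and -0.21 between miR-26b-5p and miR-26b-3p, given as a description of libraries that share their totals. Among the 358 candidates, which are entries from outside the miR-26 hairpins whose mean reached 10 CPM, the closest patterns to miR-26a-5p were those of miR-125a-5p (0.97), miR-132-3p (0.96), miR-22-5p (0.95), miR-744-5p (0.93) and miR-455-3p (0.90). miR-125a-5p had 4203, 4173 and 3343 CPM in PND mice 1 to 3, against 5215, 4531 and 3881 CPM in CON mice 1 to 3, with the same lowest and highest mouse as miR-26a-5p. The closest to miR-26b-5p were miR-23b-3p (0.98), miR-674-5p (0.96), miR-181a-5p (0.96), miR-133a-3p (0.94) and miR-16-5p (0.94). miR-23b-3p had 425, 483 and 475 CPM in PND mice 1 to 3, against 450, 424 and 425 CPM in CON mice 1 to 3, so it too was highest in PND mouse 2. No miRNA was among the 5 closest to both arms. These miRNAs were picked as the closest of 358 candidates over 6 mice, so shared high and low mice are no further observation. The size of these correlations was not tested.

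Since miR-26 acts with REST, 17 arms of miRNAs reported to be controlled by REST or to act with it were looked at beside the family. None of the 17 passed both limits, 0 had an unadjusted p under 0.05 and 0 had groups that do not overlap, against 5.13% and 9.92% of all entries. The same count of an unadjusted p under 0.05 was 0 in edgeR, against 4.21% of all entries there, and 1 in DESeq2, against 2.36%. Their median log2 fold change was 0.24, against 0.05 over all entries and 0.14 over the 361 with a mean of at least 10 CPM. Of the 17, 15 had a log2 fold change above 0 on the CPM scale and 11 with TMM factors, where their median was 0.12. Without CON mouse 2 the median on the CPM scale was 0.09.

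miR-9-5p, which acts in neural progenitors and neurons and pairs with REST, was the most abundant of them. It had 75928, 87444 and 96143 CPM in PND mice 1 to 3, against 83295, 74051 and 85333 CPM in CON mice 1 to 3, with a log2 fold change of 0.09 (SE 0.11, adjusted p = 0.77 from limma) that fell to -0.03 with TMM factors. miR-218-5p, an arm known from motor neurons, had 15938, 18626 and 21785 CPM in PND mice 1 to 3, against 16934, 12038 and 18766 CPM in CON mice 1 to 3 (log2 fold change 0.25, SE 0.18). miR-29a-3p had 10966, 13603 and 15658 CPM against 13311, 8608 and 11159 CPM (log2 fold change 0.29, SE 0.18). miR-139-5p had 7355, 7977 and 8177 CPM against 7798, 6167 and 8471 CPM (log2 fold change 0.08, and -0.04 with TMM factors). PND mouse 3 had the highest value of the PND group for all 4 and CON mouse 2 the lowest of all mice for each, whereas miR-26a-5p was lowest in PND mouse 3 and high in CON mouse 2. Not all of the list shared the pattern of these 4. miR-132-3p, induced by neuronal activity, had 2642, 2739 and 2381 CPM in PND mice 1 to 3, against 2890, 2881 and 2386 CPM in CON mice 1 to 3. Like miR-26a-5p it was lowest in PND mouse 3 and high in CON mouse 2, with a log2 fold change of -0.07 (SE 0.11). miR-212-5p was highest in CON mouse 2, at 804 CPM.

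Without CON mouse 1, the mouse with the high epithelial miRNAs, 4 of the 17 had an unadjusted p under 0.05 in limma, against 7.65% of all entries in that setting. These were miR-124-3p, miR-124-5p, miR-212-3p and miR-9-3p, singled out after their values were seen, with log2 fold changes of 0.39, 0.50, 0.39 and 0.26. Their adjusted p was 0.57 in limma, and no member of the miR-26 family had an unadjusted p under 0.05 in the same setting. In this setting the median log2 fold change was 0.39 over the 17. Over the 361 entries with a mean of at least 10 CPM it was 0.21, and 306 of them lay above 0. With all mice and TMM factors the same 4 were at 0.12, 0.25, 0.12 and 0.05. TMM factors were not applied with CON mouse 1 left out.

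**Figure D5:**
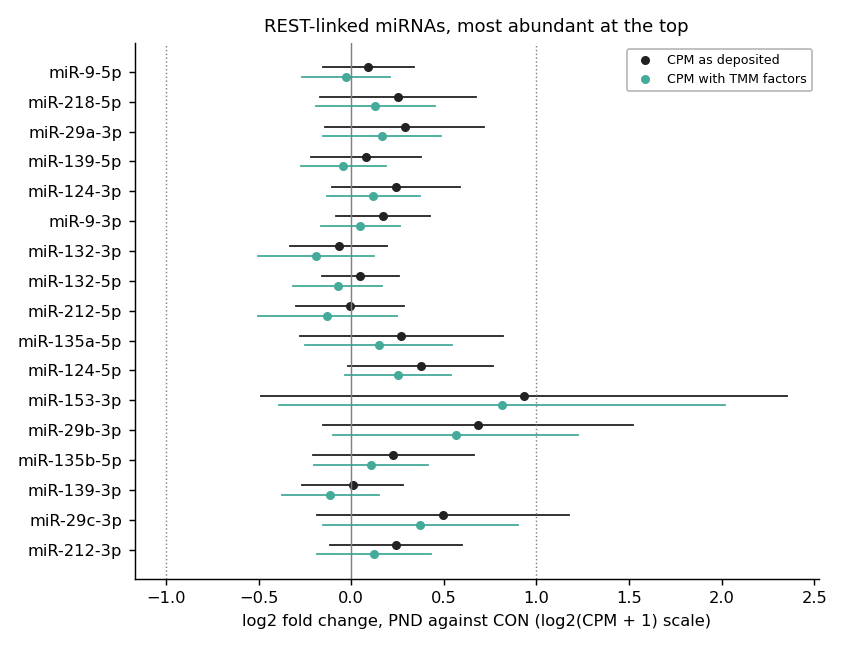
Log2 fold change of PND against CON (horizontal axis, log2(CPM + 1) scale) for the 17 REST-linked miRNA arms, ordered by mean level, as points with 95% intervals from limma on the deposited CPM (black) and with TMM factors (green). All intervals include 0, 15 black points and 11 green points lie above 0, and dotted lines mark 2-fold.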

How the data were processed

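miRNA levels in prefrontal cortex from 3 PND and 3 CON mice were analysed, with groups from the treatment labels. The authors deposited 1 CPM value per miRNA and mouse, which the study calls TPM. Reads were filtered with fastx, aligned with Bowtie (version 0.12.2 in the submitters' processing notes), assigned by miRBase position and scaled by TMM and then by library total, per the study's methods. The deposited values of each library add up to the same total, so no TMM factor shows in them. The notes list the builds mm8 and mm9 with no role, and positions here are those of RefSeq on GRCm38.p6, matched by miRNA name. The rule for reads that match both miR-26a and miR-26b is not given in the sources used here. The study's methods name the NEBNext small RNA kit, and the labels name a VAHTS total RNA kit. All values (100%) came out as whole reads within 0.05 reads, and these reads, 14849461 to 19471226 per library, served for depth and for the count tests. No library was a copy of another, since the chi-square between mice of a group was 137 to 745 times its degrees of freedom.

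limma 3.58.1 (lmFit, eBayes with trend, R 4.3.3) was run on log2(CPM + 1) of all 1189 entries, of which 33 have no miRBase name, without covariates, with Benjamini-Hochberg adjustment. Fold changes are on this scale, which understates those of low miRNAs. Sums and ratios were compared by exact permutation tests on log2 values. Alternatives were 0.1 as the pseudocount, only entries with a mean of at least 10 CPM, no trend, TMM factors, the total without miR-128-3p, a replicate block, edgeR 4.0.16, DESeq2 1.42.0, the ratio of group means, and leaving out each mouse. Simulated reads with known changes were used to check the tests. The members and lists were chosen with earlier results of these data known. Named miRNAs are the members, the other arms of the same hairpins, those that share a seed, neighbors in mean level, the 5 closest patterns, the REST-linked list (the 4 most abundant, with any past both limits) and miR-128-3p. Others are said to be chosen later. Python 3.11.15, pandas 2.3.3 and scipy 1.17.1 were used.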

Additional observations from a re-analysis of the deposited data

How the results depend on the processing

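miR-26a-5p kept a log2 fold change below 0 in all 14 alternatives (-0.23 to -0.03, adjusted p 0.68 to 0.98) and miR-26b-3p in all 13 that could be run (-0.36 to -0.07, adjusted p 0.60 to 0.98), as its mean is under 10 CPM. miR-26b-5p reversed in 4 of 14, to -0.050 with TMM factors, -0.013 with the total without miR-128-3p, -0.053 in edgeR and -0.084 in DESeq2. The minimum mean, the fit without trend and the replicate block cannot move a log2 fold change here, so they say nothing on its direction. No member was called in any alternative. The sum and the 4 ratios kept their direction in every alternative run, of which the replicate block could not change it. With each mouse left out, the log2 fold change was -0.11 to -0.03 for miR-26a-5p, 0.05 to 0.11 for miR-26b-5p and -0.25 to -0.07 for miR-26b-3p.

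Over all entries, 1 passed both limits. The count was 22 with a pseudocount of 0.1, 0 with a minimum mean of 10 CPM, 0 without trend, 2 with the replicate block, 32 in edgeR and 11 in DESeq2, and 0 to 1 with each mouse left out (0 when PND mouse 2 or CON mouse 1 was left out). The 5 with an adjusted p under 0.05 became 0 with a minimum mean of 10 CPM, 0 without trend, 0 with the replicate block and 0 to 3 with each mouse left out, that is 2 without PND mouse 1, 3 without PND mouse 3 and 0 without any of the others. The causes were not tested. The replicate numbers of the labels are not stated to pair mice, and same-numbered mice had correlations of deviations from -0.13 to 0.51. PND mouse 1 correlated best with CON mouse 2 (0.50), so not every mouse matched its own number best. With the replicate block the log2 fold changes of miR-26a-5p, miR-26b-5p and miR-26b-3p stay at -0.07, 0.07 and -0.16 by design. Only their p-values can change. Depth limits miR-26b-3p, with 61 to 84 reads, and miR-26a-1-3p, with 7 to 26. P-values set the group difference against the variation between these mice, and limma's variance is moderated over all entries.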
